A study of Mus musculus with 12 samples.

Results

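The 40 genes described here encode proteins that act from the G2 phase of the cell cycle to the end of mitosis, and their transcripts were measured by RNA-seq in primary cardiac fibroblasts from adult C57BL/6J mice, females and males. The members are a given list of symbols, named for what their proteins do, and make up 40 of the 35523 genes with summed counts. The cells received an siRNA against histone H1.0, a linker histone encoded by H1f0, or a scramble siRNA, and then TGF-β at 10 ng per mL or vehicle. The 4 groups were siH1.0 with TGF-β, siH1.0 with vehicle, scramble with TGF-β and scramble with vehicle, with 3 biological replicates in each. All groups were held for 24 h in serum-free medium with 0.1% FBS before TGF-β, so every group had passed through low serum. Knockdown was transient in cultured cells, and each library is a bulk measurement, in which fewer dividing cells and less RNA per dividing cell cannot be told apart.

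Entry into mitosis is driven by CDK1 bound to cyclin B, which CDC25 phosphatases switch on. Polo-like and Aurora kinases then build the spindle, kinetochore proteins tie chromosomes to microtubules, and the spindle assembly checkpoint holds the anaphase-promoting complex (APC/C) in check until all chromosomes are attached. The APC/C with CDC20 then marks cyclin B for destruction, and kinesins, anillin and the centralspindlin complex divide the cell. Many of these genes are transcribed late in the cycle and are silent in resting cells, where the DREAM complex keeps them off, and B-MYB with the MuvB core and FOXM1 turn them on. DREAM and MuvB contact a short promoter element called the CHR, and NF-Y binds the CCAAT box. In the heart, fibroblasts are among the cells that can divide after injury.

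Promoter windows show how often the members carry these elements. RefSeq windows on GRCm38.p6 (250 bases before to 50 bases after the start) were found for 32 of the 40 members, and Aurkb, Bora, Ccna2, Cdc25c, Dlgap5, Foxm1, Kif20a and Tpx2 were not matched. On either strand, TTTGAA, the only form of the CHR searched for, occurred in 75.0% of the 32 matched members and in 20.2% of 27025 genes with a window. CCAAT occurred in 75.0% of the matched members and in 41.1% of all genes, and both elements occurred in 62.5% of the members and in 7.97% of all genes. A match describes letters in a window and not a bound site. The RefSeq start need not be the first base of the gene in GENCODE M21. For example, the Kif2c window ends at chr4:117179022, inside a minus-strand gene that begins at 117182639. Likewise the Cdca8 window ends at chr4:124937167, and that minus-strand gene begins at 124939311. Such windows were counted with the rest. In the windows below capitals mark TTTGAA and CCAAT on the printed strand or their reverse complements TTCAAA and ATTGG. Ccnb2 and Cdk1 are shown as windows with several of both elements, Cdc20 and Plk1 as windows with a single TTTGAA, and Cdc25b as the member that H1.0 siRNA left closest to its scramble level with vehicle. The Cdc25b window holds no TTTGAA on either strand, and neither do those of Birc5, Bub1, Ccnb1, Cenpe, Mad2l1, Nuf2 and Nusap1, among which Ccnb1 had the widest difference of all members with TGF-β.
Ccnb2 (chr9:70421505-70421804, minus strand): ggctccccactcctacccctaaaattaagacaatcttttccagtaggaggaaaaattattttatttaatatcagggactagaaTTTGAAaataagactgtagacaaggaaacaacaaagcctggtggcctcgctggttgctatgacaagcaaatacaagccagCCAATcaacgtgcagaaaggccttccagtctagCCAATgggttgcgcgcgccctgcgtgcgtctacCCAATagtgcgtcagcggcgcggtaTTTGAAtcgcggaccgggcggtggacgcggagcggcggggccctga
Cdk1 (chr10:69352863-69353162, minus strand): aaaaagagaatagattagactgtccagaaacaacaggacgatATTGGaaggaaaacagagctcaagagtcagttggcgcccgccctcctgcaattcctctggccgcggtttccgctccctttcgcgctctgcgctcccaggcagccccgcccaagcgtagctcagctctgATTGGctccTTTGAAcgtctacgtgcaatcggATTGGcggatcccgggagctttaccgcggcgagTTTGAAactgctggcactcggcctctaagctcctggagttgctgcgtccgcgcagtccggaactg
Cdc20 (chr4:118437294-118437593, minus strand): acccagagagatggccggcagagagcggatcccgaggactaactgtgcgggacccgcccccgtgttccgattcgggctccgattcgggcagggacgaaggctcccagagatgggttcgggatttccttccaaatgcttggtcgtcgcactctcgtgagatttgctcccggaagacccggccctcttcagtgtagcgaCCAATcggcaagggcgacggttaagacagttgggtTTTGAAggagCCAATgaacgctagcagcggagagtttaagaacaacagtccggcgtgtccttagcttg
Plk1 (chr7:122159185-122159484, plus strand): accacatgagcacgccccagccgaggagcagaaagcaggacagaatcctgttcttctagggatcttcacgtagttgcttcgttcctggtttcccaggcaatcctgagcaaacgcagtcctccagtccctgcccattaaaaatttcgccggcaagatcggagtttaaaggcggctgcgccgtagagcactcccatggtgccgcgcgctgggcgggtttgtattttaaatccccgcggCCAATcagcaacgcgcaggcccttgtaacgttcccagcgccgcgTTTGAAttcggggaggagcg
Cdc25b (chr2:131186698-131186997, plus strand): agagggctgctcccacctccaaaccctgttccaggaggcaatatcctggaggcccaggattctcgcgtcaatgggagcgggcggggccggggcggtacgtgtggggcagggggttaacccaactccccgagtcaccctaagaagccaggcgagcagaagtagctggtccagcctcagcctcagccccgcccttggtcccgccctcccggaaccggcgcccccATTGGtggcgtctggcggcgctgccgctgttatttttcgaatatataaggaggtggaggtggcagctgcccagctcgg

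Library totals lay between 36.2 and 36.3 M estimated counts in siH1.0 cells with TGF-β, 21.4 and 35.5 M in siH1.0 cells with vehicle, 19.9 and 24.3 M in scramble cells with TGF-β and 21.2 and 24.4 M in scramble cells with vehicle. The depth thus moved with the group. With every library thinned to the lowest total, 40 members were still called lower with the siRNA under TGF-β (11.4% of all genes). With vehicle 33 were (11.5% of all genes). The targeted gene H1f0 had 843, 876 and 510.3 normalized counts in replicates 1, 2 and 3 of siH1.0 cells with TGF-β, against 2832, 2922 and 2807 in scramble cells with TGF-β. With vehicle it had 980.1, 1075 and 600.5 in siH1.0 cells, against 2515, 3033 and 2648 in scramble cells, and the siRNA and scramble libraries did not overlap. It was 3.84-fold lower with TGF-β (adjusted p = 5.8e-05) and 3.1-fold lower with vehicle (adjusted p = 2e-04) in edgeR's quasi-likelihood test. The 8 fibroblast markers were detected in every library, with Col1a1 between 2690 and 4640 TPM. Others varied more, with Tcf21 between 55.5 and 684 TPM and Pdgfra between 28.3 and 253 TPM. Of the 8, 3 were called lower and 1 higher with the siRNA under TGF-β, where 11.3% of all genes were called lower and 13% higher. The 7 macrophage markers were also detected, and their summed level was 488 to 749 TPM in siH1.0 cells with TGF-β, 928 to 1000 TPM in siH1.0 cells with vehicle, 845 to 878 TPM in scramble cells with TGF-β and 1170 to 1280 TPM in scramble cells with vehicle. The summed level of the 6 cardiomyocyte markers was 13.1 to 16.4, 20.1 to 21.5, 130 to 160 and 173 to 192 TPM in the same order of groups, nearly all of it Tnnt2, while Myh6 stayed at or below 0.726 TPM. Endothelial markers summed to between 25.7 and 60.9 TPM, pericyte and smooth muscle markers to between 2.19 and 64.8 TPM and mesothelial and epithelial markers to between 9.67 and 24.4 TPM over the 12 libraries, and Cd3e, which defines T cells, was at 0 in all 12. The part of these marker levels in the results on the mitosis genes was not tested.

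The mitosis genes as a whole were at their lowest in siH1.0 cells with TGF-β and at their highest in scramble cells with TGF-β. Their levels per transcript length added up to 234, 217 and 249 TPM in siH1.0 cells with TGF-β, against 864, 1020 and 1130 TPM in scramble cells with TGF-β. With vehicle they added up to 416, 312 and 274 TPM in siH1.0 cells, against 681, 666 and 967 TPM in scramble cells. No siRNA library reached the lowest scramble library, and the plot of summed levels shows this gap. In scramble cells with TGF-β the mean level was highest for Cdk1 at 95.8 TPM, followed by Top2a at 72.6 TPM, Ube2c at 57.8 TPM and Prc1 at 54.5 TPM, and it was lowest for Cdc25c at 5.71 TPM. In normalized counts the group means of 37 of the 40 members ran from siH1.0 with TGF-β over siH1.0 with vehicle and scramble with vehicle up to scramble with TGF-β. In Ccnb2 and Cdc25b the scramble groups were the other way round, and in Bora siH1.0 cells with vehicle were lowest. Gene by gene, all 6 siRNA libraries lay below all 6 scramble libraries in 38 members, and in 9.02% of all genes tested. The exceptions were Ccnb2, whose highest siRNA library of 175 normalized counts exceeded its lowest scramble library of 170.5, and Cdc25b, with 286 in its highest siRNA library and 244 in its lowest scramble library.

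**Figure D1:**
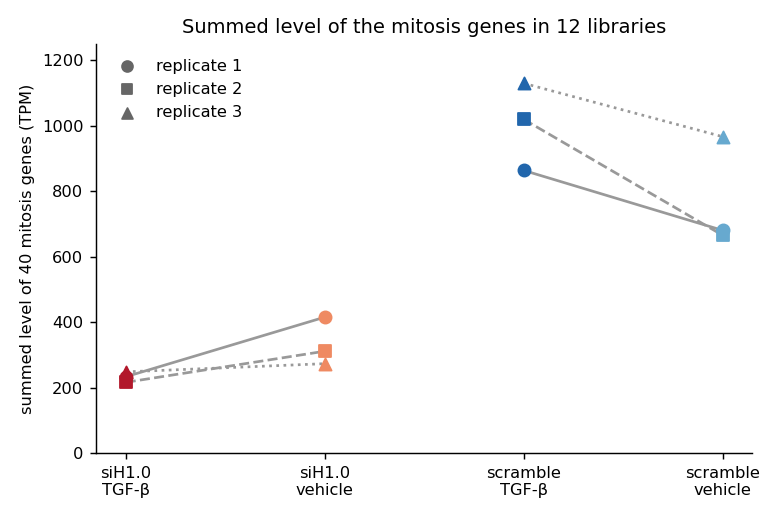
Summed level of the 40 mitosis genes (y axis, TPM) in each of the 12 libraries by group (x axis); lines join vehicle and TGF-β libraries of the same replicate number within an siRNA. The siH1.0 libraries with TGF-β lie between 217 and 249 TPM, and the scramble libraries with TGF-β between 864 and 1130 TPM.

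With TGF-β, H1.0 siRNA lowered every member. All 40 were called lower at an adjusted p under 0.01 in edgeR's quasi-likelihood test with Benjamini-Hochberg adjustment over 18028 genes, where 11.3% of all genes were called lower and 13% higher. In all 40 the siRNA libraries lay below the scramble libraries, as they did in 21% of all genes tested. The median log2 fold change over the members was -2.05, from -2.62 to -0.84, beside 0.04 over all genes, and 39 members were at least 2-fold and 24 at least 4-fold lower. The replicate block and DESeq2 each called 40 members lower as well, and 16% of all genes each. The values below are normalized counts in replicates 1, 2 and 3 of each group. In the GENCODE M21 annotation of GRCm38 the genes taken as classic markers are protein coding, with Ccnb1 at chr13:100778650-100786570, Cdk1 at chr10:69335146-69352938, Plk1 at chr7:122159439-122169873, Mki67 at chr7:135689784-135716361 and Top2a at chr11:98992943-99024189.

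Among the cyclins and their partners, Ccnb1 (cyclin B1, the activating subunit of CDK1) had 172, 156 and 144 in siH1.0 cells with TGF-β, against 767, 983 and 1161 in scramble cells with TGF-β, the widest difference of the 40. It was 6.17-fold lower (log2 fold change -2.62, SE 0.22, adjusted p = 8e-06). Cdk1, the kinase itself, had 252, 218 and 290.5 with the siRNA, against 1035, 1167 and 1371 with scramble, and was 4.69-fold lower (adjusted p = 6.1e-06). Ccna2, cyclin A2 of S phase and G2, was 5.17-fold lower, and Ccnb2, a further B-type cyclin, was 2.47-fold lower. The call of Ccnb2 was lost without scramble TGF-β replicate 3 (adjusted p = 0.011). Foxm1, the transcription factor of the late cell cycle, had 211, 177 and 204, against 650.3, 674 and 747, and was 3.5-fold lower (adjusted p = 2.3e-05). Cdc25b, a phosphatase that starts CDK1 activation, had 119.5, 136 and 125, against 250.5, 265 and 297, and its 2.13-fold lower level was the smallest change in this group (log2 fold change -1.09, SE 0.13, adjusted p = 6e-05). Cdc25c, its relative, was 3.57-fold lower at the lowest counts of the list, 34.1, 27.8 and 53.6 against 87.0, 175 and 152.

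Of the mitotic kinases and their activators, Plk1 (polo-like kinase 1) had 154, 126 and 142 in siH1.0 cells, against 590.3, 717 and 856 in scramble cells, and was 5.11-fold lower (log2 fold change -2.35, SE 0.23, adjusted p = 1.9e-05). Aurka, the Aurora kinase of the spindle poles, was 4.08-fold lower, and its activator Tpx2 was 4.21-fold lower. The chromosomal passenger complex was represented by its kinase Aurkb, 3.07-fold lower, and by its subunits Birc5 (survivin), 4.13-fold lower, and Cdca8 (borealin), 3.3-fold lower. Bora, the cofactor with which Aurora A activates PLK1, had 151, 129.6 and 143 in siH1.0 cells, against 193, 266 and 302 in scramble cells. Its 1.79-fold lower level was the smallest change of the 40 (log2 fold change -0.84, SE 0.20, adjusted p = 0.0066). The call of Bora was lost when any of 6 libraries was left out, namely scramble vehicle replicate 1, scramble TGF-β replicates 2 and 3 and each siH1.0 TGF-β replicate, at adjusted p from 0.011 to 0.03, and with the transcript length offset (adjusted p = 0.021).

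The 4 spindle assembly checkpoint genes were 2.15-fold to 4.53-fold lower. Ttk, which encodes the checkpoint kinase MPS1, had 61.3, 56.3 and 87.8 with the siRNA, against 279, 316 and 337 with scramble, and was 4.53-fold lower (adjusted p = 0.00015). Bub1, a kinase at the kinetochore, was 4.38-fold lower, and Bub1b, which encodes the checkpoint protein BUBR1, was 2.93-fold lower. Mad2l1, whose product MAD2 sequesters CDC20, had 382, 335 and 429.5, against 818, 753 and 898, and was 2.15-fold lower (log2 fold change -1.11, SE 0.14, adjusted p = 0.00012). The 5 kinetochore and centromere genes were 3.89-fold to 4.66-fold lower. Cenpf, a large kinetochore-associated protein, had 237, 268 and 280.4, against 1052, 1222 and 1390, and was 4.66-fold lower. Cenpa, the centromeric histone H3 variant, had 133, 126 and 155, against 419, 543 and 648, and was 3.89-fold lower. Between them lay the kinetochore kinesin Cenpe and the NDC80 complex subunits Ndc80 and Nuf2, at log2 fold changes of -2.14, -1.98 and -2.05.

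Motors and spindle proteins were 3.66-fold to 5.58-fold lower. Kif2c, a kinesin that depolymerizes microtubules, had 70.6, 74.0 and 74.6 in siH1.0 cells with TGF-β, against 354, 375 and 495 in scramble cells with TGF-β (log2 fold change -2.48, SE 0.23, adjusted p = 1.5e-05). Nusap1, a microtubule-bundling protein, had 179, 123 and 158, against 506, 510.2 and 667 (log2 fold change -1.87, SE 0.24, adjusted p = 0.00012). The other members of this group were Kif11, the motor that pushes spindle poles apart, Kif20b, a kinesin of late mitosis, the chromokinesin Kif4, Hmmr, a spindle microtubule protein, and Dlgap5, which stabilizes kinetochore fibers, at -2.19, -2.02, -2.13, -1.89 and -2.06 on the log2 scale. Among cytokinesis genes, Prc1, which crosslinks the microtubules of the central spindle, had 402, 403 and 403, against 1797, 1988 and 2159, and was 4.92-fold lower (adjusted p = 6e-06). Its siRNA libraries differed by less than 2 counts. Racgap1, a centralspindlin subunit, had 290.2, 319 and 313, against 794, 892 and 943, and was 2.85-fold lower, while its partner Kif23 was 4.43-fold, the kinesin Kif20a 3.26-fold and anillin (Anln) 4.25-fold lower.

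For mitotic exit, Ube2c, the ubiquitin-conjugating enzyme of the APC/C, had 143, 134 and 173 with the siRNA, against 570.3, 614 and 782 with scramble, and was 4.37-fold lower (adjusted p = 5.5e-05). The APC/C activator Cdc20 was 3.99-fold lower, and Cdca3, known as a trigger of mitotic entry, had 95.4, 71.7 and 99.4, against 296, 357 and 386, and was 3.89-fold lower (adjusted p = 7.4e-05). Mki67, the gene of the proliferation antigen Ki-67 that coats mitotic chromosomes, had 934, 835 and 1115, against 4050, 4832 and 4957, and was 4.8-fold lower (log2 fold change -2.26, SE 0.18, adjusted p = 4.7e-06). Top2a, the topoisomerase that untangles sister chromatids, had 989, 857 and 1128, against 3896, 4226 and 4718, and was 4.32-fold lower. Exons of Ccna2, Cdc20, Cdc25b, Cdc25c, Cdca8, Kif20a, Kif4, Nusap1, Plk1, Prc1 and Ube2c overlap those of a gene on the opposite strand, and exons of Foxm1 and Top2a those of a gene on the same strand. Whether reads were shared between these genes was not tested. Of the pseudogene copies, Ccnb1-ps and Kif4-ps had 0 counts and Ccnb2-ps had 47 counts over the 12 libraries.

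**Figure D2:**
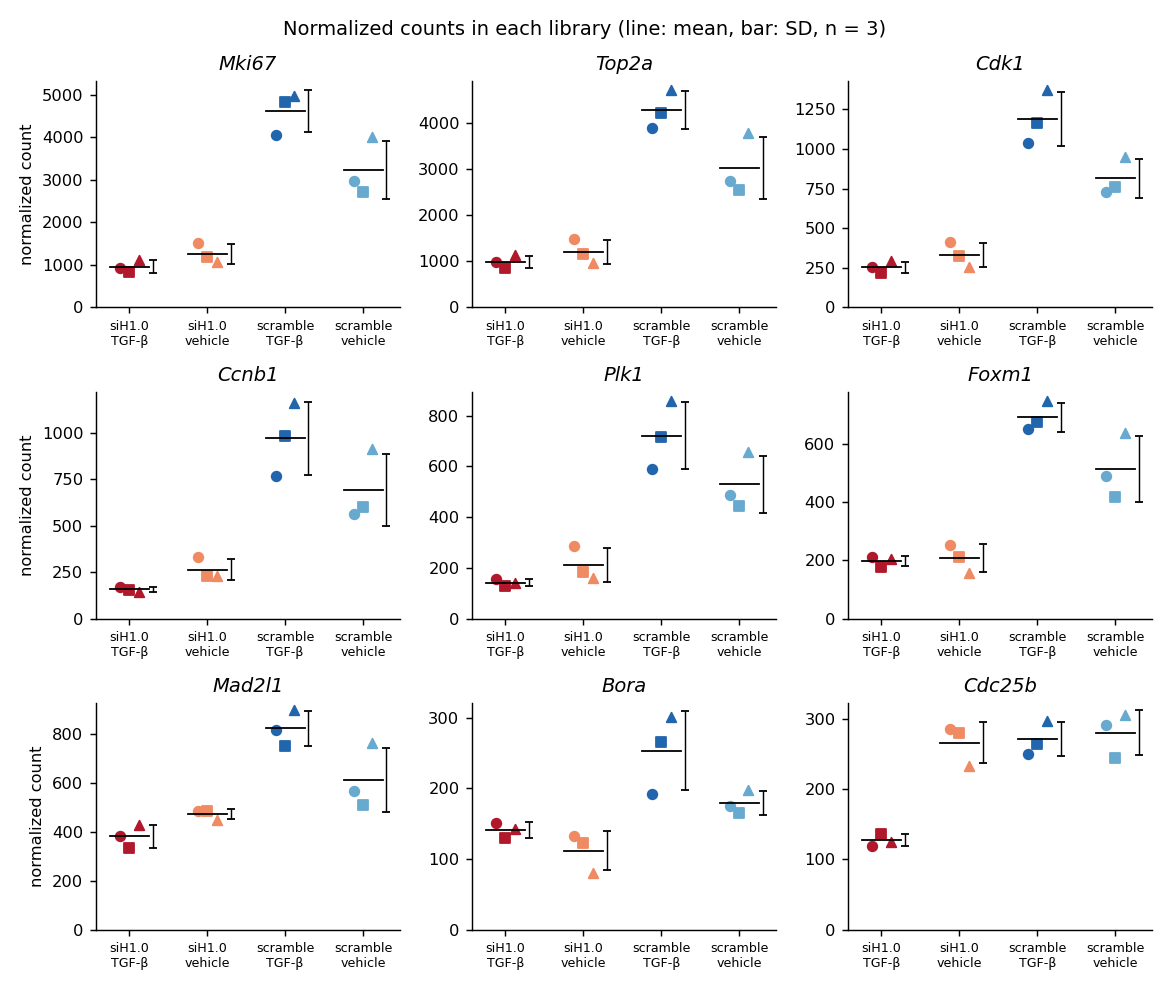
Normalized counts (y axis, linear from 0) of 9 mitosis genes in each library by group (x axis); circles, squares and triangles are replicates 1, 2 and 3, lines are means and bars SD (n = 3). For Mki67 the siH1.0 libraries with TGF-β lie between 835 and 1115 and the scramble libraries with TGF-β between 4050 and 4957, while for Cdc25b only the siH1.0 libraries with TGF-β stand below the rest.

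With vehicle, H1.0 siRNA lowered 34 of the 40 members and raised 0, in a comparison where 11.2% of all genes were called lower and 13.4% higher. The siRNA libraries lay below the scramble libraries in 39 members, and in 22.4% of all genes. The median log2 fold change was -1.21, from -1.63 to -0.08, beside 0.00 over all genes, and 30 members were at least 2-fold lower. The members not called were Ccnb2, Cdc25b, Cdc25c, Mad2l1, Nusap1 and Bora. With the replicate number as a block Nusap1 was called as well (log2 fold change -0.82, adjusted p = 0.0042), which made 35, where 16.2% of all genes were called lower, and DESeq2 called 36 lower, where it called 17.2% of all genes. Leaving out siH1.0 vehicle replicate 2 or 3 ended the calls of Aurkb, Birc5, Bub1b, Cdca8, Ttk and Ube2c and left 28. Those of this set other than Ube2c were also lost without scramble vehicle replicate 3, and Aurkb and Birc5 without scramble vehicle replicate 1, with adjusted p over these fits from 0.011 to 0.026. With the transcript length offset Birc5, Bub1b, Dlgap5 and Kif23 were not called (adjusted p from 0.013 to 0.037), and after thinning Birc5 was not.

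Prc1 showed the widest difference with vehicle, with 589, 459 and 359 in siH1.0 cells, against 1242, 1255 and 1852 in scramble cells (log2 fold change -1.63, SE 0.19, adjusted p = 5.7e-05). Ccna2 had 392, 282 and 289, against 835, 803 and 1189, and was 2.94-fold lower (adjusted p = 5.9e-05). Tpx2 had 461, 400.1 and 354, against 979, 969 and 1496, and was 2.84-fold lower (adjusted p = 6.2e-05). In each of these genes the highest siRNA library was below the lowest scramble library. Cenpf was 2.75-fold, Kif4 2.64-fold, Cdca3 2.52-fold and Ttk 2.39-fold lower, the widest of their roles. Of the classic markers, Mki67 had 1514, 1192 and 1059 in siH1.0 cells, against 2960, 2717 and 3993 in scramble cells, and was 2.57-fold lower (adjusted p = 0.00012). Ccnb1 had 330.4, 228 and 232, against 561, 602 and 913, and was 2.63-fold lower (adjusted p = 0.00045). Top2a, Cdk1, Plk1 and Foxm1 were 2.51-fold, 2.47-fold, 2.53-fold and 2.49-fold lower.

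Cdc25b was the member with the smallest difference. It had 286, 279 and 232 in siH1.0 cells with vehicle, against 291, 244 and 306 in scramble cells with vehicle, and the groups overlapped. Its log2 fold change was -0.08, with a 95% interval from -0.37 to 0.21 and an adjusted p of 0.66. Mad2l1 had 486, 485 and 448, against 566, 509 and 762 (log2 fold change -0.37, SE 0.14, adjusted p = 0.062). Bora had 133, 123 and 80.6, against 175, 165 and 198 (log2 fold change -0.69, SE 0.21, adjusted p = 0.022). The siRNA and scramble libraries of Mad2l1 and Bora did not overlap, although neither passed the threshold. The smallest called differences of their roles were Racgap1, 1.89-fold, Cdc20, 2.12-fold, and Nuf2, 2.15-fold lower.

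**Figure D3:**
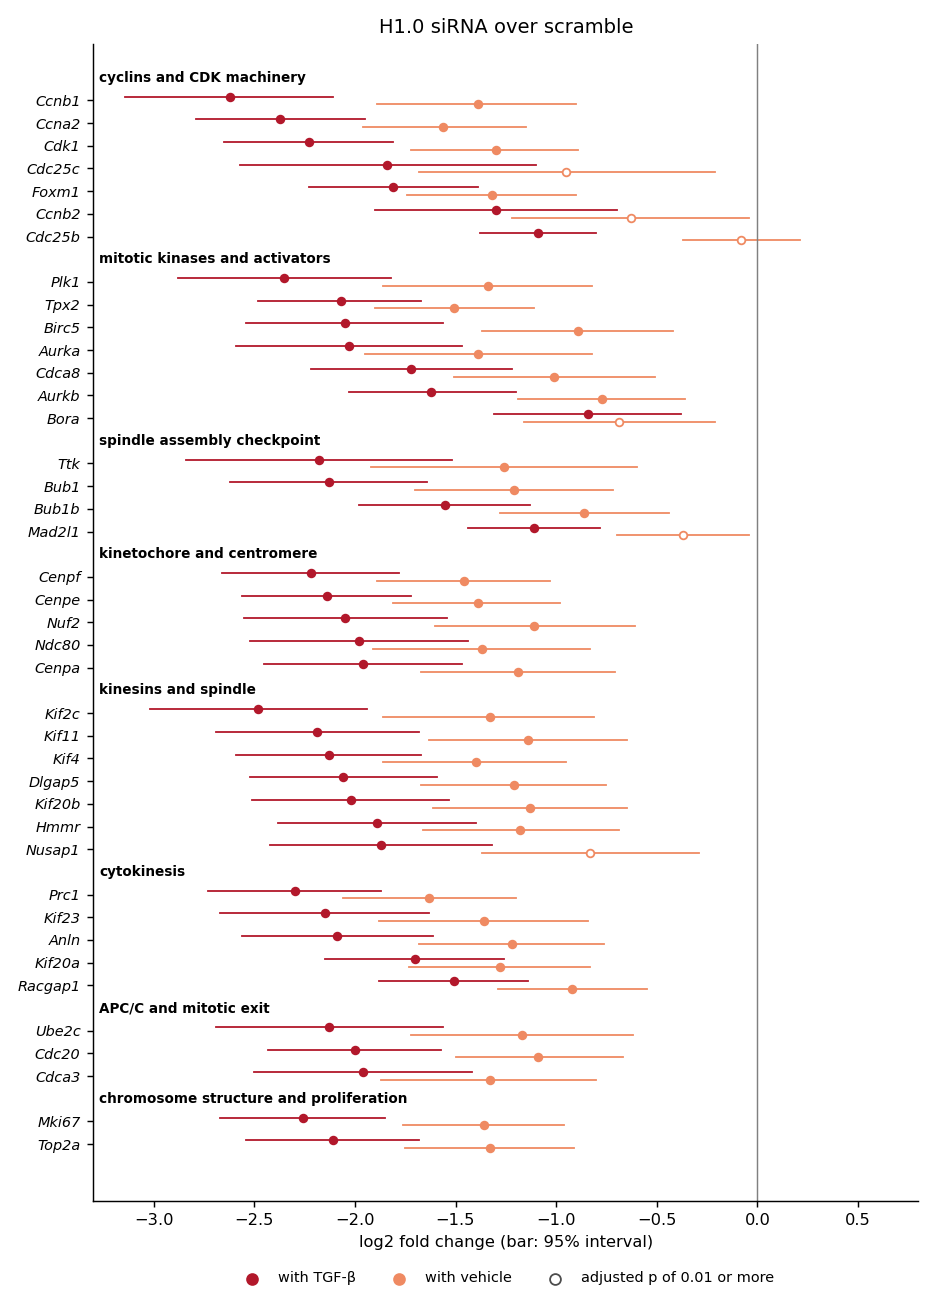
Log2 fold change of H1.0 siRNA over scramble (x axis) for the 40 members, grouped by role (y axis), with TGF-β (dark red, drawn above) and with vehicle (orange, below); bars are 95% intervals and open points have an adjusted p of 0.01 or more. All 40 points with TGF-β are filled and lie at or below -0.84, and 34 points with vehicle are filled.

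TGF-β by itself was tested against vehicle within each siRNA. In siH1.0 cells 2 members were called lower with TGF-β and 0 higher, where 6.6% of all genes were called lower and 9.14% higher. The median over the members was -0.38, from -1.06 to 0.34, and it was -0.01 over all genes. The TGF-β libraries lay below the vehicle libraries in 16 members, and in 21.1% of all genes. At an unadjusted p under 0.05 there were 15 members, beside 39.1% of all genes. Without siH1.0 vehicle replicate 1, the library with the highest count of that group in all 40 members, the median was -0.20 and this count was 7. The count was 8 without siH1.0 TGF-β replicate 2 and 23 without siH1.0 vehicle replicate 3. Cdc25b had 119.5, 136 and 125 with TGF-β, against 286, 279 and 232 with vehicle, and was 2.09-fold lower (log2 fold change -1.06, SE 0.13, adjusted p = 0.00017). Cdc20 had 168, 150.4 and 161 with TGF-β, against 347, 249 and 249.9 with vehicle, and was 1.76-fold lower (adjusted p = 0.0073). The call of Cdc20 was lost when any siH1.0 library or scramble TGF-β replicate 2 was left out, at adjusted p from 0.01 to 0.035. With the replicate block 3 members were called lower (12.6% of all genes), Anln being added at a log2 fold change of -0.63 (adjusted p = 0.0032). DESeq2 called 3 lower (12.7% of all genes), with Ccnb1 as the addition, and at an adjusted p under 0.05 there were 8 lower (13.4% of all genes).

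The remaining members did not pass the test. Ccnb1 had 172, 156 and 144 with TGF-β, against 330.4, 228 and 232 with vehicle, without overlap (log2 fold change -0.74, SE 0.22, adjusted p = 0.027). Nusap1 had 179, 123 and 158, against 316, 211 and 247, likewise without overlap (log2 fold change -0.75, adjusted p = 0.036). Mki67 had 934, 835 and 1115, against 1514, 1192 and 1059, with overlap (log2 fold change -0.38, adjusted p = 0.12). The differences nearest to 0 were those of Aurka, -0.03 with a 95% interval from -0.59 to 0.54, and of Foxm1, -0.06 with an interval from -0.48 to 0.36. Bora was the 1 member with a positive value, 0.34, and had 151, 129.6 and 143 with TGF-β, against 133, 123 and 80.6 with vehicle.

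In scramble cells 0 members were called with TGF-β in either direction, where 10.5% of all genes were called higher and 7.94% lower. The median log2 fold change was 0.45, from -0.05 to 0.69, beside -0.01 over all genes, and 38 values were positive. At an unadjusted p under 0.05 there were 22 members, beside 41.9% of all genes. The TGF-β libraries lay above the vehicle libraries in 10 members, and in 23.6% of all genes. With the replicate block 4 members were called higher (15.4% of all genes). They were Ccna2 (log2 fold change 0.55, adjusted p = 0.0063), Aurka (0.62, adjusted p = 0.0071), Bub1 (0.71, adjusted p = 0.0083) and Mad2l1 (0.44, adjusted p = 0.0076). DESeq2 called 1 higher, Bub1 (17% of all genes), and at an adjusted p under 0.05 there were 5 higher (17.2% of all genes). Scramble vehicle replicate 3 was the library with the highest count of that group in all 40 members. Without it 6 members were called higher, as were 1795 of the 17890 genes tested in that fit. These 6 were Bub1, Ccna2, Kif11, Mad2l1, Mki67 and Tpx2 (adjusted p from 0.0032 to 0.0092), and the median over the members was 0.62. Dropping replicate 2 or 3 of the scramble TGF-β libraries left 10 or 7 members at an unadjusted p under 0.05, dropping replicate 1 or 2 of the scramble vehicle libraries left 6 or 4, and over all libraries left out the lowest median was 0.35.

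Bub1 had the widest value in scramble cells, with 508, 625 and 679.8 with TGF-β, against 320.2, 318 and 483 with vehicle (log2 fold change 0.69, SE 0.20, adjusted p = 0.023). Mki67 had 4050, 4832 and 4957, against 2960, 2717 and 3993 (log2 fold change 0.52, SE 0.17, adjusted p = 0.037). Cdk1 had 1035, 1167 and 1371, against 728, 763 and 952 (log2 fold change 0.55, SE 0.17, adjusted p = 0.032). In these 3 genes every TGF-β library was above every vehicle library. Plk1 had 590.3, 717 and 856, against 488, 442 and 657, with overlap (log2 fold change 0.45, adjusted p = 0.14). The values nearest to 0 were Ccnb2, -0.04 (95% interval -0.62 to 0.55), Cdc25b, -0.05 (-0.34 to 0.24), Cdca3, 0.08 (-0.44 to 0.59), and Kif20a, 0.08 (-0.35 to 0.52).

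**Figure D4:**
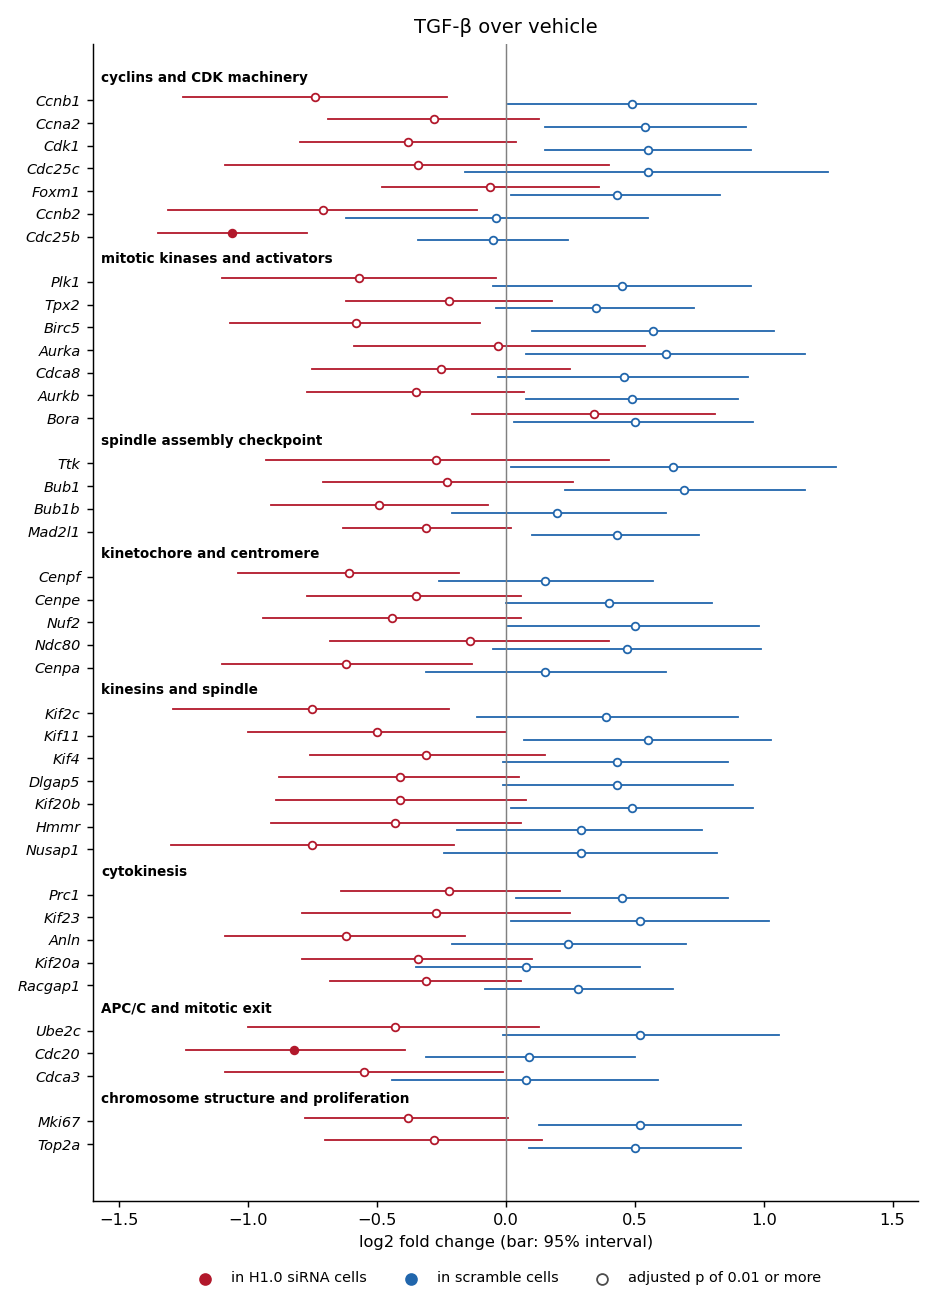
Log2 fold change of TGF-β over vehicle (x axis) for the 40 members, grouped by role (y axis), in siH1.0 cells (red, drawn above) and in scramble cells (blue, below); bars are 95% intervals and open points have an adjusted p of 0.01 or more. In siH1.0 cells 39 points are negative and Cdc25b and Cdc20 are filled, and in scramble cells 38 points are positive and 0 are filled.

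The difference between these TGF-β responses, siH1.0 minus scramble, was tested as an interaction. It was negative in all 40 members, with a median of -0.80, from -1.23 to -0.16, and 0 members were called at an adjusted p under 0.01, where 0.0111% of all genes were called lower and 0.0333% higher. At an unadjusted p under 0.05 there were 32 members, beside 11.9% of all genes, and without siH1.0 vehicle replicate 1 there were 21, at a median of -0.62. The widest value was that of Ccnb1 (-1.23, SE 0.30, adjusted p = 0.12), followed by Kif2c (-1.15, SE 0.32, adjusted p = 0.16) and Birc5 (-1.15, SE 0.29, adjusted p = 0.13). Cdc25b had the smallest adjusted p (-1.01, SE 0.18, adjusted p = 0.04) and was the 1 member that DESeq2 called (adjusted p = 3e-04, with 0.958% of all genes called lower). In edgeR's fit without a block it was also the 1 member past an adjusted p of 0.05, where 0.244% of all genes were called lower. At 0.01 the replicate block called 0 members and likewise 0.244% of all genes lower. With the block, Cdc25b (0.018), Mad2l1 (0.03), Anln (0.031), Birc5 (0.035), Mki67, Ccnb1, Ccna2 and Kif11 (0.048 each) had an adjusted p under 0.05. DESeq2 also put members other than Cdc25b under 0.05, among them Ccnb1 (0.01) and Birc5 (0.016). The share of all genes under 0.05 in these fits was not counted. The narrowest value was that of Bora (-0.16, 95% interval -0.82 to 0.50). The comparisons of TGF-β within an siRNA share libraries with those between the siRNAs, so their values are not independent of each other.

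Replicates of the same group differed in a way that most members shared. In scramble cells replicate 3 was the highest library in 40 members with vehicle and in 39 with TGF-β. In siH1.0 cells with vehicle replicate 1 was highest in 40 members, and with TGF-β replicate 3 was highest in 29 and replicate 2 lowest in 32. Within pairs of the same replicate number the siRNA library was below the scramble library in all 3 pairs for 40 members with TGF-β (29.9% of all genes) and for 39 with vehicle (31.4% of all genes). With TGF-β over vehicle, 21 members were lower in all 3 siH1.0 pairs (31% of all genes) and 1 was higher (30.3% of all genes). In all 3 scramble pairs 36 members were higher with TGF-β (31.2% of all genes). Both patterns, lower in the siH1.0 pairs and higher in the scramble pairs, were found together in 17 members and in 2.04% of all genes.

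Genes of the neighboring steps of the cycle gave a comparison for the mitosis genes. Over all genes tested, 11.3% were called lower and 13% higher with the siRNA under TGF-β, and 11.2% lower and 13.4% higher with vehicle. Of 50 further mitosis genes, 42 were called lower and 1 higher with the siRNA under TGF-β, and 37 lower and 1 higher with vehicle, at medians of -1.68 and -0.91. The widest under TGF-β was Esco2, an acetyltransferase of sister chromatid cohesion, which had 53.5, 46.3 and 59.0 in siH1.0 cells, against 372, 371 and 459.6 in scramble cells, and was 7.56-fold lower (adjusted p = 8.4e-06). Spc24, a subunit of the NDC80 complex, was the 1 called higher, with 7960, 8932 and 7388 in siH1.0 cells, against 3534, 4476 and 4345 in scramble cells (log2 fold change 0.97, adjusted p = 0.0015). Ndc80, of the same complex, had 104, 91.0 and 134 in these siH1.0 cells. Exon overlaps were looked up for the members only, so whether reads of another gene entered the Spc24 counts was not tested. Of 38 genes of G1/S and replication, 34 were lower and 0 higher with the siRNA under TGF-β, and 25 were lower with vehicle. Rrm2, the ribonucleotide reductase subunit of S phase, had 235, 219 and 279 in siH1.0 cells with TGF-β, against 1446, 1532 and 1784 in scramble cells with TGF-β, and was 6.5-fold lower (adjusted p = 4e-06). In this list 28 genes were called higher and 1 lower with TGF-β in scramble cells, at a median of 0.75, where 10.5% of all genes were called higher and 7.94% lower. Ccne2, a cyclin of S phase entry, had 891, 911 and 1162 with TGF-β, against 279.9, 258 and 427 with vehicle (log2 fold change 1.62, adjusted p = 0.00014), and the 1 lower gene was the G1 cyclin Ccnd1 (-1.04, adjusted p = 0.0085). The replication helicase gene Mcm4 was the 1 gene of these lists called in the interaction (-1.22, SE 0.13, adjusted p = 0.0059).

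Regulators of the mitosis genes were called in both directions with the siRNA, where 11.3% of all genes were called lower and 13% higher under TGF-β, and 11.2% lower and 13.4% higher with vehicle. Of 23 DREAM, MuvB and E2F genes, 12 were called lower and 1 higher under TGF-β, and 9 lower and 3 higher with vehicle. Mybl2, which encodes B-MYB, was 2.56-fold lower with vehicle (adjusted p = 0.00049), and under TGF-β the E2F repressor genes E2f7 and E2f8 were 4.19-fold and 3.67-fold lower. Rb1, the retinoblastoma protein gene, had 2376, 2410 and 1606 in siH1.0 cells with TGF-β, against 817, 918 and 778 in scramble cells with TGF-β, and was 2.54-fold higher (adjusted p = 3.9e-05). Of 24 CDK inhibitor and p53 target genes, 4 were called lower and 5 higher in each of the siRNA comparisons. Cdkn1a, which encodes the CDK inhibitor p21, had 16170, 15170 and 13030 in siH1.0 cells with TGF-β, against 6566, 5689 and 7151 in scramble cells with TGF-β (log2 fold change 1.19, adjusted p = 3.3e-05). With vehicle it had 17620, 16000 and 17300 in siH1.0 cells, against 6013, 5290 and 7260 in scramble cells (log2 fold change 1.46, adjusted p = 1e-05), and the groups overlapped in neither comparison. Cdkn2c, which encodes the CDK inhibitor p18, was 2.29-fold lower under TGF-β (adjusted p = 2e-04). Of 22 measured APC/C and SCF genes, 5 were called lower and 5 higher under TGF-β, with Fbxo5, the APC/C inhibitor EMI1, 4.63-fold lower (adjusted p = 1.7e-06). Of 14 genes of the G2/M checkpoint and the control of mitotic entry, 5 were lower and 2 higher under TGF-β, among them the checkpoint kinase Chek1, 3.11-fold lower (adjusted p = 9.4e-05).

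**Figure D5:**
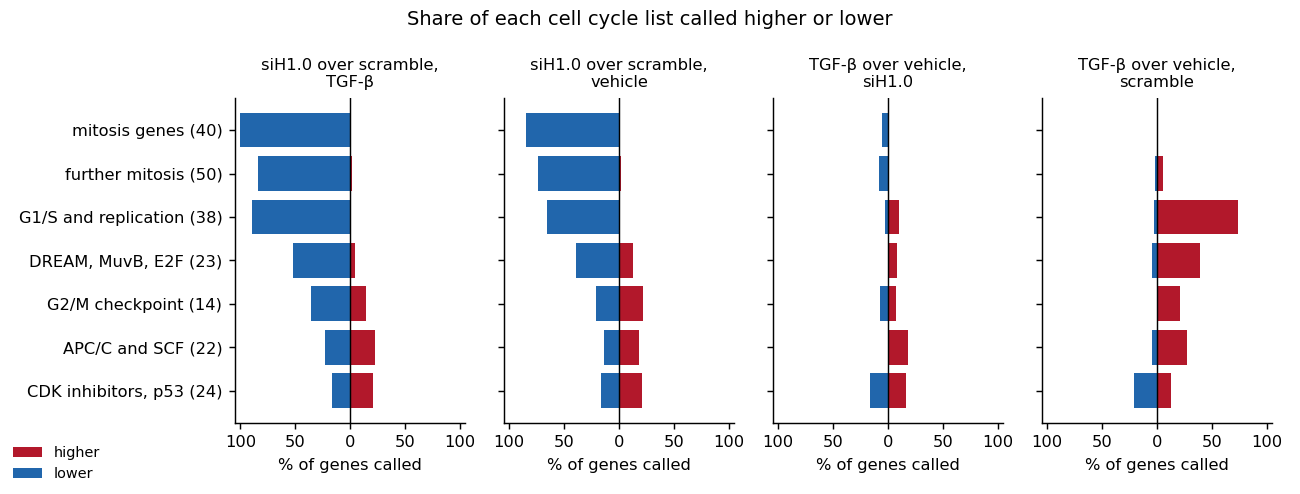
Share of each cell cycle list (y axis, number of genes tested in brackets) called higher (red, right) or lower (blue, left) at an adjusted p under 0.01 (x axis, percent of the list) in 4 comparisons. Of the 40 mitosis genes all are called lower with the siRNA under TGF-β, while the G1/S and replication list has 28 of 38 genes called higher with TGF-β in scramble cells.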

How the data were processed

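RNA-seq libraries of 12 cultures (4 groups, 3 biological replicates each) were analysed. The authors depleted ribosomal RNA, quantified transcripts with Salmon on mm10 and compared groups with DESeq2. The deposited values were estimated counts per transcript, with TPM and an effective length in the same deposited tables. Of 117135 transcripts 115973 matched GENCODE M21 by identifier and held 99.54% to 99.6% of each library. Estimated counts were summed per gene and rounded, and TPM was summed for levels per length.

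All 4 groups entered 1 edgeR (4.0.16, R 4.3.3) quasi-likelihood fit with TMM and no covariates, with 8 residual degrees of freedom. The fit used the 18028 genes that reached 10 counts in total, p-values were adjusted by Benjamini-Hochberg, and a gene was called below an adjusted p of 0.01. This count minimum and threshold follow the study. Normalized counts are TMM-scaled CPM times the mean library total, and the SE is the log2 fold change over the root of F. Totals of 19.9 to 36.3 M counts put between 874 and 26981 counts on each member over the 12 libraries. Intervals are 95%, from this SE and a t distribution with 8 degrees of freedom, and rest on the spread between replicates, moderated over genes. The F test has further degrees of freedom from this moderation, so an interval can include 0 at an unadjusted p under 0.05. Kif4 with TGF-β in scramble cells is such a case (-0.01 to 0.86). Replicate pairs differed by more than counting error (chi-square over its degrees of freedom 9.41 to 69.3), and mitochondrial genes held 1.86% to 2.83% of counts.

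Deviations from the group means correlated at 0.20 to 0.64 between libraries of the same replicate number in all 18 pairs, so the numbers pair the libraries. This rests on the data, since the labels number the replicates without saying what a number shares. Alternatives were the replicate block, DESeq2 (1.42.0), RLE size factors, no count minimum, edgeR's expression filter, a transcript length offset, thinning, a threshold of 0.05 and leaving out each library. Per-library values were given for classic markers and for the members with the largest and smallest change of each role, and other lists by their counts and widest called genes. The members and lists were chosen with earlier results of these data known.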

Additional observations from a re-analysis of the deposited data

Results flagged for a closer look

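In 17 members, and in 2.04% of all genes tested, the normalized count was lower with TGF-β in all 3 siH1.0 pairs of the same replicate number and higher with TGF-β in all 3 scramble pairs. In the edgeR fit without a block, none of the 17 was called for TGF-β in either siRNA. With the replicate block Mad2l1 was called higher in scramble cells (adjusted p = 0.0076) and Anln lower in siH1.0 cells (adjusted p = 0.0032). DESeq2 called Ccnb1 lower in siH1.0 cells (adjusted p = 0.0072). The interaction, siH1.0 minus scramble on the log2 scale, passed an adjusted p of 0.01 in edgeR's quasi-likelihood test in 0 of the 17, and its negative sign in these members follows from how they were picked. Among cyclins and kinases it was -1.23 for Ccnb1, -1.02 for Plk1, -1.15 for Birc5 and -0.71 for Cdca8. Among checkpoint and kinetochore genes it was -0.69 for Bub1b, -0.73 for Mad2l1, -0.75 for Cenpe, -0.76 for Cenpf and -0.77 for Cenpa. For motors and spindle proteins it was -1.05 for Kif11, -1.15 for Kif2c, -1.04 for Nusap1, -0.71 for Hmmr and -0.85 for Dlgap5. For cytokinesis and mitotic exit it was -0.87 for Anln, -0.59 for Racgap1 and -0.96 for Ube2c. The adjusted p of the interaction lay between 0.12 and 0.38 without a block. With the replicate block it lay between 0.03 for Mad2l1 and 0.19 for Racgap1. In that fit Anln (0.031), Birc5 (0.035), Ccnb1 and Kif11 (0.048 each) were under 0.05 too.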

How the results depend on the processing

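The count of members lower with the siRNA was 40 under TGF-β and 34 with vehicle. Leaving out 1 library gave 38 to 40 and 28 to 34, and the transcript length offset gave 39 and 30. With 1 library left out, 8.61% to 11.5% of all genes were called lower under TGF-β and 8.74% to 12.1% with vehicle. With the length offset these shares were 9.27% and 9.05%. For TGF-β in siH1.0 cells the count was 2, with 1 to 2 when 1 library was left out, 3 with DESeq2 and 8 at a threshold of 0.05. For TGF-β in scramble cells the count was 0, with 0 to 6 when 1 library was left out, 1 with DESeq2, 5 at a threshold of 0.05 and 4 with the replicate block. For the interaction the count was 0, with 0 to 0 when 1 library was left out, 1 with DESeq2 (Cdc25b) and 1 at a threshold of 0.05. The replicate block gave 3 members for TGF-β in siH1.0 cells, 35 and 40 for the siRNA with vehicle and with TGF-β, and 0 for the interaction, and it changed the call of no member other than those named in the report. Why these counts moved was not tested. RLE size factors, no count minimum and edgeR's expression filter left 40, 34, 2, 0 and 0. In those fits 8.57% to 14.8% of all genes were called lower with the siRNA under TGF-β and 8.67% to 15% with vehicle. Signs turned only in values that did not pass. With the length offset Bub1 for TGF-β in siH1.0 cells was 0.04 and Cdc25b for TGF-β in scramble cells 0.19. When 1 library was left out, TGF-β in siH1.0 cells ranged from -0.18 to 0.15 for Aurka, -0.35 to 0.00 for Bub1, -0.22 to 0.12 for Foxm1, -0.40 to 0.00 for Kif23, -0.31 to 0.10 for Ndc80 and -0.48 to 0.09 for Ttk. TGF-β in scramble cells ranged from -0.21 to 0.14 for Ccnb2, -0.03 to 0.30 for Cdc20, -0.14 to 0.02 for Cdc25b, -0.04 to 0.30 for Cdca3, 0.00 to 0.40 for Cenpa and -0.07 to 0.27 for Kif20a, and the siRNA with vehicle from -0.17 to 0.00 for Cdc25b. Cdc25c had the fewest counts, 874 over the 12 libraries.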
